A study of Mus musculus with 77 samples.

Results

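The genes described here are 10 transcripts of the macrophage inflammatory programme: the cytokines Il1a, Il1b, Il18, Tnf, Il6 and Il10, the interleukin-1 receptor antagonist Il1rn, the inflammasome sensor Nlrp3, and the NF-kB feedback genes Nfkbid and Tnfaip3. They were chosen by symbol, and all 10 were found among the 24940 transcripts of each expression table. The study compared RNA and p53 binding between room air and high oxygen (hyperoxia) in whole lung and in bone marrow-derived macrophages (BMDM, macrophages grown from marrow cells in culture) of the mouse strains C57BL/6J (B6) and DBA and of Trem2 knockout mice (KO). Lungs came from pups that were kept in 75% oxygen from within the first 24 h of life to postnatal day 14 or that stayed in room air, and were perfused before freezing, per the labels. The lung libraries numbered 4 in room air and 3 in hyperoxia for B6, 4 and 4 for KO, and 4 and 4 for DBA. A second B6 set (set 2) held 2 room-air and 3 hyperoxia lungs. BMDM had 2 libraries for each of the 3 genotypes in each exposure. The BMDM column names carry the mark "invitro" with the number 95 and a time of 24 h, and the labels state no oxygen level for the cultures. B6 BMDM were 1 library marked MF and 1 marked F, and all KO and DBA BMDM were marked MF. Nothing in the labels says that libraries of a group came from separate animals or cultures, so p-values measure the spread between these libraries, which may be technical.

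Depth, recovered from the expression values as estimated reads, was 14.6 to 47.0 M per library in BMDM, 12.5 to 41.1 M in the first lung sets and 7.08 to 8.04 M in set 2. Trem2 was 908 to 962 TPM (reads scaled for transcript length and library size) in the 4 B6 BMDM libraries and 236 to 252 TPM in the 4 libraries labelled KO, so the knockout libraries were lower in BMDM but still held Trem2 reads. In room-air lung the ranges were 2.14 to 3.73 TPM in B6 and 1.05 to 2.75 TPM in KO, and they overlapped. In hyperoxic lung they were 5.97 to 9.85 and 1.96 to 2.67 TPM, without overlap. The labels do not say which part of the gene is deleted. Epithelial markers summed to at most 1.12 TPM in any BMDM library against 16333 TPM or more for 10 macrophage markers, so macrophage markers far exceeded them. Fibroblast markers summed to 74.8 to 107 TPM in room-air KO and DBA BMDM and to at most 0.611 TPM in B6 BMDM. In lung, 6 erythroid markers summed to 379 to 6826 TPM in the first B6 set, 2885 to 6654 TPM in KO, 3174 to 28393 TPM in DBA and 30995 to 79999 TPM in set 2, and their part in the lung results was not tested. Dates in the column names, given here as codes, separate groups: KO and DBA BMDM share code 3 and B6 BMDM carry code 6, B6 lungs carry codes 1 and 2, KO lungs codes 2 and 3, and DBA lungs codes 4 and 5. All KO and DBA lungs and set 2 were marked male, and B6 lungs of the first set were of both sexes. Among room-air B6 lungs the males carry code 1 and the females code 2, so sex and date code coincide there.

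Interleukin-1 alpha and beta, encoded by Il1a and Il1b, signal through a common receptor, and Il1rn encodes a ligand that occupies that receptor without signalling. Interleukin-1 beta and interleukin-18 are made as inactive precursors that are cut by caspase-1 on an inflammasome, and NLRP3 is one of the sensors that assembles it. Transcription of Il1b, Il6, Tnf and Nlrp3 is classically driven by NF-kB, and that pathway also induces its own brakes: Tnfaip3 encodes A20, a ubiquitin-editing enzyme that ends the signal, and Nfkbid encodes IkB-NS, a nuclear regulator of NF-kB target genes. Interleukin-10 restrains macrophage activation.

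Of the 10 genes, 9 had a start site in the RefSeq promoter table (build GRCm38.p6), and the 250 bases before each listed start were searched on both strands for the NF-kB consensus and for a p53 half-site consensus. NF-kB matches are present in 7.25% and p53 half-site matches in 7.13% of all 32851 windows of that length. The 3 windows below are shown because Nlrp3 carried the p53 peaks closest to any of these start sites, Tnfaip3 differed between KO and DBA macrophages, and Il1b changed with oxygen in all 3 genotypes. They run 5′ to 3′ on the strand of the gene. Capitals mark the p53 half-site match in Nlrp3 and the NF-kB matches in Tnfaip3.
Nlrp3, chr11:59541319-59541568, plus strand: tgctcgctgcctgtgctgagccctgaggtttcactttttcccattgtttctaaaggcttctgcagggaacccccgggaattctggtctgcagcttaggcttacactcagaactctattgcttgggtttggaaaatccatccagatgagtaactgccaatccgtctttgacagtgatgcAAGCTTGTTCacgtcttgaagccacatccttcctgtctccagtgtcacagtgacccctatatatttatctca
Tnfaip3, chr10:19015411-19015660, minus strand: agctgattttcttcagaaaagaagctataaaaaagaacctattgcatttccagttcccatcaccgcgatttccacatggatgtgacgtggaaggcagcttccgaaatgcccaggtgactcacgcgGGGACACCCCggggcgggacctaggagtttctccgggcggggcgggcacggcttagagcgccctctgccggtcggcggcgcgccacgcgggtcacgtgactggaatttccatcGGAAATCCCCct
Il1b, chr2:129371140-129371389, minus strand: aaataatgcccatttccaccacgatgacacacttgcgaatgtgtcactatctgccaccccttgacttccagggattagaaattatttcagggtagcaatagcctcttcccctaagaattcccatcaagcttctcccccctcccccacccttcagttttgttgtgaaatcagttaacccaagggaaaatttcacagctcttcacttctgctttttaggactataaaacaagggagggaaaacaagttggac
The Nlrp3 window belongs to a RefSeq start 1117 bases before the start used in the expression tables, and its half-site match lies at chr11:59541497-59541506. An NF-kB match lies upstream of it in the same window at chr11:59541383-59541392. The Tnfaip3 window held 2 NF-kB matches, which begin 125 and 12 bases before the start. The Il6 window held 1 match to each motif. Nfkbid was measured on a transcript at chr7:30421731-30428746 in BMDM and set 2, and on another at chr7:30423275-30428746 in the first lung sets. Of 3 Nfkbid windows, 1 (chr7:30422156-30422405) held 2 NF-kB matches and the other 2 held neither motif. That window lies before a start 675 bases from the one listed for BMDM. The windows of Il1b, Il18, Il1a, Tnf and Il1rn and the window before the listed Nlrp3 start held neither. A match is a description of letters, and its absence says nothing about the factor.

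Levels differed widely among the 10 genes, and TPM can be set side by side because they are per length. In the 12 BMDM libraries the lowest and highest TPM were 8.90 and 89.4 for Il1rn, 13.5 and 32.6 for Nlrp3, 10.2 and 21.8 for Tnfaip3, and 5.52 and 25.5 for Tnf. Nfkbid ranged from 6.58 to 17.5 TPM, Il18 from 3.49 to 9.63, Il1b from 0.948 to 12.8, Il1a from 0.265 to 5.41 and Il10 from 0.117 to 1.71. Il6 was at 0 in 9 of 12 BMDM libraries and had at most 2 estimated reads in the others, so no Il6 difference was detectable in macrophages at this depth. Whole lung had another order: in the first 23 lungs Tnfaip3 (8.78 to 15.1 TPM) and Il18 (3.20 to 12.8 TPM) were the most abundant, Nlrp3 reached only 1.87 TPM and Tnf only 1.35 TPM. Il6 had 0 to 22 and Il10 0 to 14 estimated reads per lung in the same 23 libraries, and Il10 was at 0 in 11 of them. A gene was tested where at least 1 TPM was reached in a number of libraries equal to the size of the smallest group, which kept 9 of the 10 genes in BMDM (Il6 left out), 8 in the first lung sets (Il6 and Il10 left out) and 7 in set 2 (Nlrp3 also left out). In bulk lung RNA, fewer cells of a type and less RNA per cell cannot be told apart.

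Il1b and Il18 fell and Il1rn rose with hyperoxia in macrophages of all 3 genotypes. Fold changes are log2 on log2(TPM + 1), with limma and Benjamini-Hochberg adjustment over all 12320 genes tested, and a gene is said to have risen or fallen where adjusted p was under 0.05. In B6 BMDM 5 of the 9 genes tested passed, 1 higher and 4 lower, where 28.5% of all genes passed (5.68% higher, 22.8% lower). After quantile normalization 1269 were higher and 1306 lower, and the median over all genes went from -0.13 to 0.01. In KO BMDM 3 of 9 passed, 1 higher and 2 lower, where 23.3% of all genes passed (6.88% higher, 16.4% lower). In DBA BMDM 4 of 9 passed, 2 higher and 2 lower, where 18.8% of all genes passed (5.73% higher, 13% lower). Of the calls over all genes 29.6% in KO and 30.5% in DBA were higher, and 49.0% and 47.7% after quantile normalization. The median log2 fold change of the 9 genes was -0.27 in B6, -0.09 in KO and -0.23 in DBA, against -0.13, -0.08 and -0.06 over all genes.

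Il1b, the secreted pyrogenic cytokine on chromosome 2 (mm10, chr2:129364578-129371139), measured 5.50 and 4.20 TPM in room-air B6 BMDM against 1.94 and 2.16 TPM in hyperoxic ones. DBA BMDM had 6.55 and 12.8 TPM of it in room air, against 2.65 and 2.22 TPM with hyperoxia. KO BMDM had 2.67 and 3.19 TPM of it in room air, against 1.45 and 0.948 TPM with hyperoxia. Both hyperoxia libraries were below both room-air libraries in each genotype. The log2 fold change was -0.93 ± 0.25 (SE, limma adjusted p = 0.0218) in B6, -0.84 ± 0.25 (adjusted p = 0.0370) in KO and -1.58 ± 0.25 (adjusted p = 0.00267) in DBA. With 1 library left out, the DBA call held in all 4 cases (adjusted p up to 0.0304) and the KO call in none (adjusted p 0.0776 to 0.209). The B6 call was lost without the first room-air library (adjusted p = 0.13), without the first hyperoxia library (0.0831) and without the second (0.0661), and under quantile normalization both the B6 and the KO call were lost (0.0706 and 0.0781). The response did not differ detectably between genotypes: KO minus B6 was 0.09 (95% interval -0.71 to 0.88) and DBA minus B6 was -0.65 (-1.44 to 0.15). The linked gene Il1a went the other way in its estimates but did not pass in any genotype, with log2 fold changes of 0.43, 0.75 and 0.51 in B6, KO and DBA. Il1a spread widely within B6 BMDM, where the library marked MF gave 0.265 TPM (6 estimated reads) in room air and 0.596 TPM in hyperoxia, and the library marked F gave 1.28 and 2.28 TPM.

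**Figure D1:**
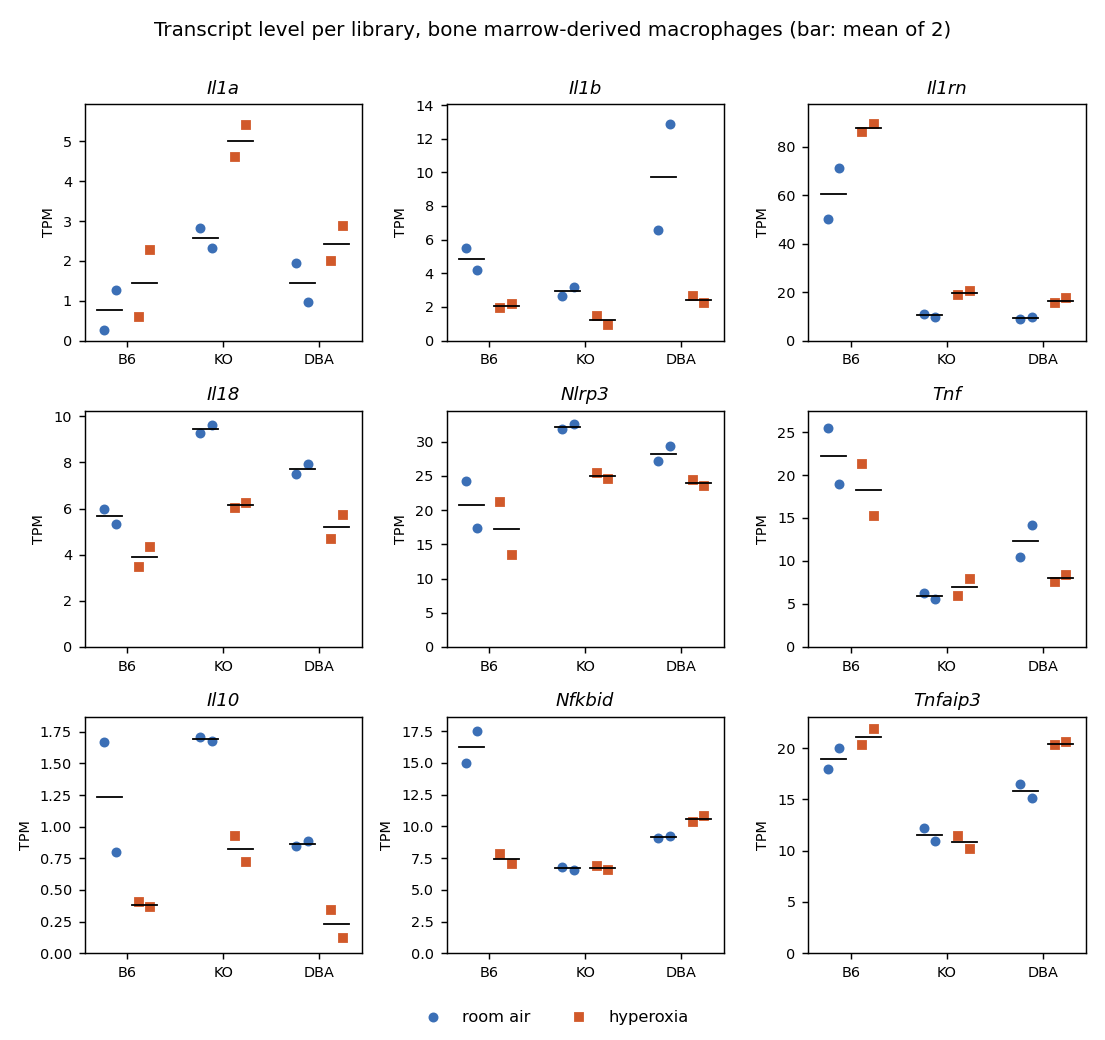
TPM of 9 genes in each BMDM library by genotype (circles, room air; squares, hyperoxia; horizontal bars, mean of 2 libraries; y axes start at 0 and differ between panels). Both hyperoxia libraries lie below both room-air libraries for Il1b and Il18 in all 3 genotypes and above them for Il1rn, and Il1rn is far higher in B6 (50.0 to 89.4 TPM) than in KO and DBA (8.90 to 20.3 TPM).

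Il1rn, the receptor antagonist (chr2:24345371-24351491), moved opposite to Il1b. It measured 50.0 and 71.3 TPM in room-air B6 BMDM against 86.2 and 89.4 TPM with hyperoxia, 10.99 and 9.79 rising to 18.8 and 20.3 TPM in KO, and 8.90 and 9.74 rising to 15.4 and 17.7 TPM in DBA. No hyperoxia library overlapped the room-air range of its genotype. The log2 fold change was 0.55 ± 0.14 (adjusted p = 0.0189) in B6, 0.85 ± 0.14 (adjusted p = 0.00260) in KO and 0.76 ± 0.14 (adjusted p = 0.00603) in DBA. The KO call held without each of its 4 libraries. The DBA call was lost without the second hyperoxia library (adjusted p = 0.0588), and the B6 call without the first room-air library (0.103), the first hyperoxia library (0.0544) or the second (0.0815). As a description, the Il1rn to Il1b ratio of TPM was higher in hyperoxia within each genotype, going from 9.09 and 17.0 to 44.4 and 41.3 in B6, from 4.12 and 3.07 to 13 and 21.5 in KO, and from 1.36 and 0.758 to 5.80 and 7.97 in DBA. The genotypes kept their order in both exposures, with B6 highest and DBA lowest, and the hyperoxia values of DBA lay below the room-air values of B6.

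**Figure D2:**
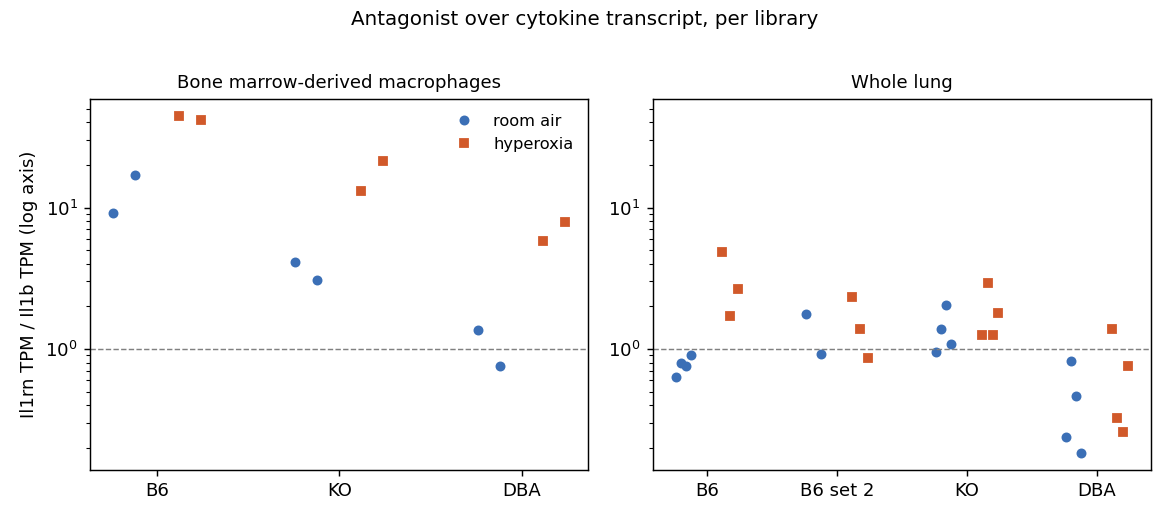
Ratio of Il1rn TPM to Il1b TPM in each library on a log axis, BMDM on the left and whole lung on the right (circles, room air; squares, hyperoxia; dashed line, ratio of 1). In BMDM the hyperoxia libraries lie above the room-air libraries in every genotype. In lung the 3 hyperoxia libraries of the first B6 set (1.70 to 4.87) lie above its 4 room-air libraries (0.630 to 0.900). The exposures overlap in set 2 (0.924 and 1.76 in room air, 0.859 to 2.35 in hyperoxia), and also in KO and DBA lung.

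Il18 (chr9:50554700-50581841), the other cytokine cut by caspase-1, was 5.99 and 5.33 TPM in room-air B6 BMDM against 3.49 and 4.36 TPM with hyperoxia. It was 9.27 and 9.63 TPM falling to 6.04 and 6.26 TPM in KO, and 7.49 and 7.95 falling to 4.67 and 5.73 TPM in DBA. The 3 log2 fold changes were close to each other, at -0.44 ± 0.12 (adjusted p = 0.0209) in B6, -0.55 ± 0.12 (adjusted p = 0.00883) in KO and -0.50 ± 0.12 (adjusted p = 0.0172) in DBA. KO minus B6 was -0.11 (95% interval -0.48 to 0.27) and DBA minus B6 was -0.06 (-0.43 to 0.32). Each call was lost without 2 of its 4 libraries, with adjusted p up to 0.122 in B6 (without the first room-air library; 0.119 without the first hyperoxia library), up to 0.0692 in KO (without the second room-air library; 0.0653 without the first hyperoxia library) and up to 0.126 in DBA (without the first hyperoxia library; 0.0795 without the second room-air library). The B6 call was also lost after quantile normalization (-0.25, adjusted p = 0.161), and both the B6 and the DBA call when only the groups compared entered the fit (0.111 and 0.0544). The sensor Nlrp3 (chr11:59542686-59566953) was lower in hyperoxia by its estimate in each genotype but did not pass, at -0.27, -0.36 and -0.23 with adjusted p of 0.311, 0.199 and 0.436. Its KO libraries did not overlap, at 31.8 and 32.6 TPM in room air against 25.4 and 24.5 TPM with hyperoxia, and neither did the DBA libraries, at 27.2 and 29.3 and then 24.4 and 23.5 TPM.

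Among the BMDM responses, that of Nfkbid differed most between genotypes. In B6 the room-air libraries had 14.99 and 17.5 TPM and the hyperoxic ones 7.80 and 6.999 TPM, and Nfkbid fell by 1.04 ± 0.09 on the log2 scale (adjusted p = 0.000106), a call that held without each library. In KO BMDM the level was 6.80 and 6.58 TPM in room air against 6.90 and 6.58 TPM with hyperoxia, and in DBA BMDM 9.10 and 9.21 and then 10.4 and 10.8 TPM. Neither of these passed (log2 fold changes 0.01 and 0.19, adjusted p = 0.952 and 0.177). The difference in response was 1.05 ± 0.13 for KO minus B6 (adjusted p = 0.0143) and 1.23 ± 0.13 for DBA minus B6 (adjusted p = 0.0183), and Nfkbid was the only 1 of the 9 genes to pass in either, where 1.45% (0.657% higher) and 0.974% (0.422% higher) of all genes passed. KO minus B6 was lost without the first KO room-air library (adjusted p = 0.0819) or either KO hyperoxia library (0.0833 and 0.0583), DBA minus B6 without either DBA hyperoxia library (0.0669 and 0.0947), and both when only the groups compared entered the fit (0.0525 and 0.110). Both differences rest on B6 libraries of another date code, so genotype and date code cannot be told apart here. KO and DBA, which share a date code, differed in their Nfkbid response by -0.18 (95% interval -0.47 to 0.11).

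Tnfaip3 (chr10:19000910-19015410) rose in DBA BMDM, from 16.5 and 15.2 TPM to 20.3 and 20.6 TPM (log2 fold change 0.35 ± 0.09, adjusted p = 0.0243), and did not pass in B6 (0.15) or KO (-0.09). That call was lost without the second room-air library (adjusted p = 0.112) or either hyperoxia library (0.0985 and 0.123). Il10 was 1.67 and 0.796 TPM in room-air B6 BMDM against 0.401 and 0.367 TPM with hyperoxia, with 8 and 13 estimated reads in the latter, and fell by 0.66 ± 0.19 (adjusted p = 0.0282). That call was lost without the first room-air library (adjusted p = 0.194), the first hyperoxia library (0.0808) or the second (0.103), and under quantile normalization (0.105). In KO Il10 went from 1.71 and 1.67 to 0.926 and 0.718 TPM (adjusted p = 0.0595) and in DBA from 0.844 and 0.883 to 0.344 and 0.117 TPM (adjusted p = 0.0533), so the hyperoxia libraries were below the room-air ones in all 3 genotypes. Tnf (chr17:35199367-35202007) did not pass in any genotype, with log2 fold changes of -0.27 in B6, 0.20 in KO and -0.56 in DBA.

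**Figure D3:**
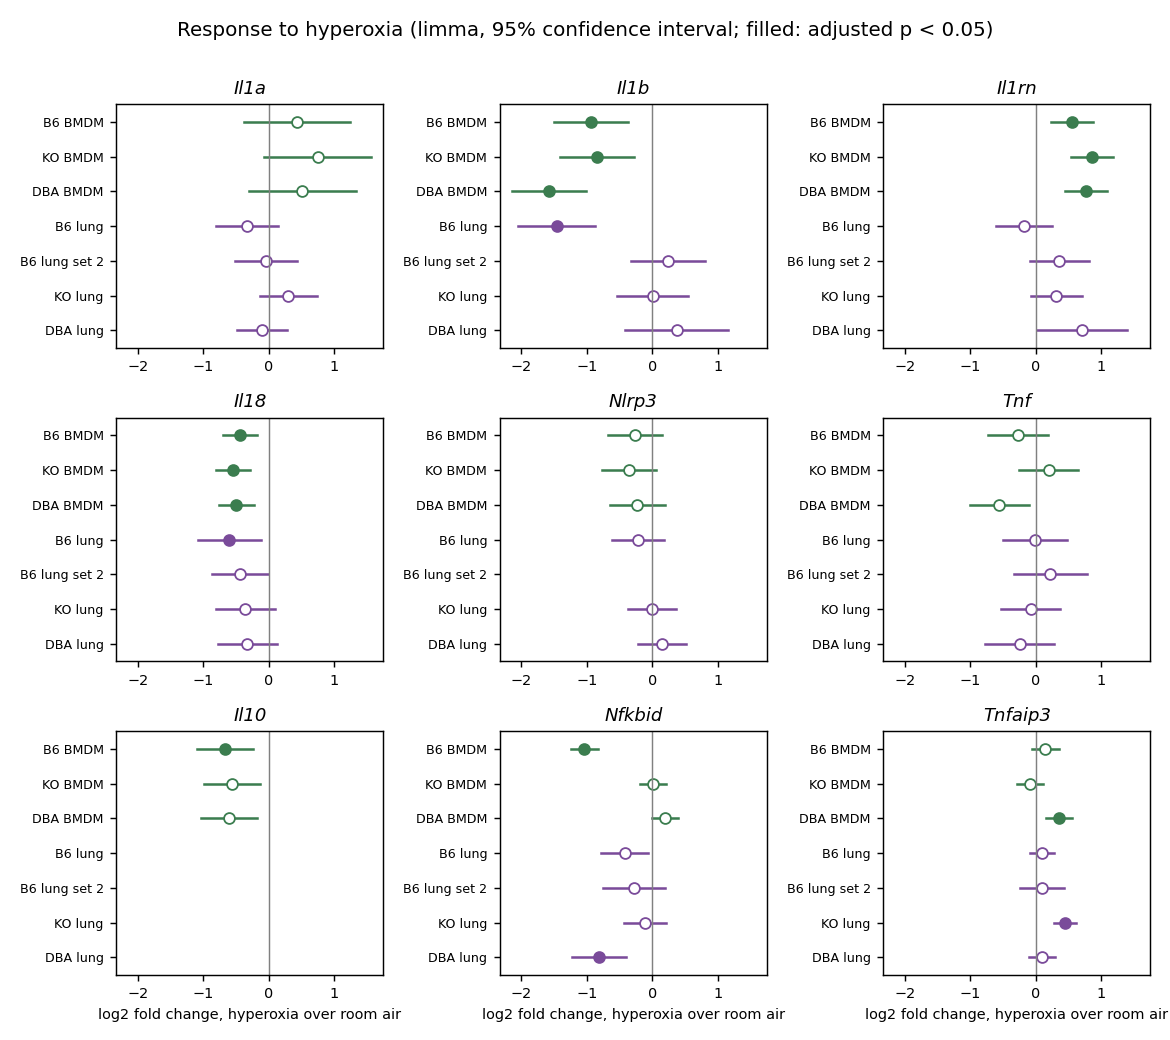
Log2 fold change of hyperoxia over room air with its 95% confidence interval (limma) for 9 genes in 3 BMDM and 4 lung comparisons (green, BMDM; purple, lung; filled circles, adjusted p under 0.05; no circle where the gene was not tested). Il1b is below 0 with a filled circle in all 3 BMDM comparisons and in the first B6 lung set only, while Il18 is below 0 in all 7 comparisons and filled in 4.

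Cell-type markers moved with oxygen in the same BMDM libraries. The 10 macrophage markers summed to 25011 to 25484 TPM in room-air B6 and 18905 to 19370 TPM in hyperoxia, and 8, 7 and 7 of them fell in B6, KO and DBA while 1 rose in B6. The 6 monocyte markers summed to 25.7 to 36.2 TPM and then 6.83 to 10.2 TPM in B6, to 67.4 to 68.2 and then 28.9 to 30.9 TPM in KO, and to 45.1 to 53 and then 17.7 to 21.6 TPM in DBA. The 9 neutrophil markers summed to 62.2 to 87.6 and then 37.6 to 41.3 TPM in B6. Neutrophil sums were 103 to 143, then 62 to 63.4 TPM in KO, and 81.3 to 81.9, then 68 to 69.8 TPM in DBA. Fibroblast sums were lower in KO (85.5 to 107, then 24.2 to 31.7 TPM) and DBA (74.8 to 88.5, then 29.3 to 32.8 TPM). Alveolar macrophage sums were higher in KO (171 to 209, then 314 to 317 TPM) and DBA (190 to 215, then 289 to 290 TPM). They overlapped in B6. Mast cell sums were higher in all 3 genotypes, up to 4.49 TPM. The part of these markers in the changes of the cytokine genes was not tested.

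Other genes of the pathway were read from lists of receptors, inflammasome parts, NF-kB factors, signal adaptors and inflammatory products. Over all genes 22.8%, 16.4% and 13% fell and 5.68%, 6.88% and 5.73% rose in B6, KO and DBA. Of 12 inflammasome and processing genes tested, 6 fell in B6, 8 in KO and 6 in DBA, and none rose, and after quantile normalization 5, 7 and 5 fell and none rose. The median log2 fold change of these genes was -0.42, -0.39 and -0.38. The largest change was that of Txnip, a thioredoxin-binding protein also known as an NLRP3 partner, with log2 fold changes of -1.93, -2.49 and -2.87 (adjusted p = 2.87e-05, 9.59e-06 and 7.92e-06). Pycard, the adaptor that links the sensor to caspase-1, fell in KO (-0.60) and DBA (-0.59). Of 14 signal adaptors and feedback genes, 7 fell and 1 rose in B6, and 6 fell and 2 rose in KO and in DBA. The receptor Tlr2 fell by 1.18 in B6 and KO and by 1.28 in DBA (adjusted p = 0.00487, 0.00563 and 0.00490). The phosphatase gene Dusp1 rose in B6 (0.78) and KO (0.82). Of 8 receptor genes tested, Il6ra, Il10ra and Il1rap fell in all 3 genotypes, with log2 fold changes between -0.42 and -0.80, and the Il1rap call in B6 was lost after quantile normalization (adjusted p = 0.140). Of 18 NF-kB factors and inhibitors, 6 fell and 2 rose in B6, 3 fell and 2 rose in KO, and 5 fell and 2 rose in DBA, against 2 fallen and 3 risen, 3 and 4, and 5 and 2 after quantile normalization. The inhibitor-like gene Nfkbiz fell in all 3 (-0.82, -0.59 and -1.06), with an adjusted p of 0.0578 in KO after quantile normalization. Of 13 inflammatory products, 3 fell in each genotype while 2, 2 and 1 rose. The monocyte chemokine gene Ccl2 fell by 1.59 in B6, by 1.12 in KO and by 1.60 in DBA (adjusted p = 0.00403, 0.0233 and 0.00564).

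Between genotypes, KO and DBA BMDM carry the same date code and can be compared without that limit. DBA is named as a strain and KO as a knockout, so strain and loss of Trem2 cannot be told apart in these differences. The comparison of KO with DBA was added after the column names were read. In room air 4 of the 9 genes were lower in KO than in DBA and none was higher, where 25.1% of all genes passed (15.1% lower). Il1b was 2.67 and 3.19 TPM in KO and 6.55 and 12.8 TPM in DBA, a log2 difference of -1.38 ± 0.25 (adjusted p = 0.00327) that held without each library. Tnf was 6.22 and 5.52 TPM in KO and 10.5 and 14.2 TPM in DBA, a difference of -0.94 ± 0.20 (adjusted p = 0.00799), lost without the second DBA library (0.0664) or the second KO library (0.0651). Tnfaip3 was 12.2 and 10.9 TPM in KO and 16.5 and 15.2 TPM in DBA, a difference of -0.43 ± 0.09 (adjusted p = 0.00729), lost without the second KO library (0.0732). Nfkbid differed by -0.40 ± 0.09 (adjusted p = 0.0106), lost without the first or the second KO library (0.0512 and 0.0754). In hyperoxia 2 of 9 were lower in KO and none was higher, where 21.7% of all genes passed (13.9% lower). Of the calls over all genes 40.1% in room air and 36.0% in hyperoxia were higher in KO, and after quantile normalization 1627 of the calls were higher and 1596 lower in room air and 1366 and 1291 in hyperoxia. The genes lower in hyperoxia were the feedback genes: Tnfaip3 at 11.4 and 10.2 TPM in KO and 20.3 and 20.6 TPM in DBA (-0.86 ± 0.09, adjusted p = 0.000110), and Nfkbid at 6.90 and 6.58 and at 10.4 and 10.8 TPM (-0.58 ± 0.09, adjusted p = 0.00145). Both held without each library, and both exposures gave groups that did not overlap. Il1rn did not differ detectably between KO and DBA, at 0.14 (95% interval -0.18 to 0.46) in room air and 0.23 (-0.09 to 0.55) in hyperoxia. None of the 9 oxygen responses differed between KO and DBA at adjusted p under 0.05 with limma, where 0.0325% of all genes passed, and 2 were at an unadjusted p under 0.05. In room air 2 of 6 monocyte and 3 of 5 neutrophil markers tested were higher in KO than in DBA and 1 of each was lower, and their part in these differences was not tested. Among the pathway genes, 6 of 18 NF-kB factors and inhibitors were lower in KO in room air and none was higher, and Nfkbiz (-0.75), Zfp36 (-0.63) and Nfkbie (-0.62) led them. The interleukin-18 decoy gene Il18bp was higher in KO by 2.53 in room air and 2.58 in hyperoxia (adjusted p = 1.03e-06 and 9.80e-07).

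Against B6, the largest difference among the 10 genes was in Il1rn, with log2 differences in room air of -2.42 ± 0.14 in KO (adjusted p = 1.61e-06) and -2.56 ± 0.14 in DBA (adjusted p = 6.86e-07). In hyperoxia the differences were -2.11 and -2.35, and all 4 held without each library. KO and DBA share the B6 libraries as their control, so these values are not independent of each other. KO differed from B6 in 7 of 9 genes in room air (3 higher, 4 lower, where 49.1% of all genes passed, 33.9% higher and 15.3% lower) and in 6 of 9 in hyperoxia (3 and 3, where 50.3% passed, 38.1% higher and 12.2% lower). DBA differed in 6 of 9 in room air (2 higher, 4 lower, where 56.8% passed, 40.7% higher and 16.2% lower) and in 5 of 9 in hyperoxia (3 and 2, where 60.6% passed, 46.6% higher and 14% lower). Of the calls over all genes in these comparisons, 69.0% to 76.9% were higher than B6, and after quantile normalization 50.4% to 51.5%. Tnf was lower in both: 18.9 and 25.5 TPM in room-air B6 against 5.52 and 6.22 TPM in KO (-1.74 ± 0.20, adjusted p = 9.96e-05) and 10.5 and 14.2 TPM in DBA (-0.80 ± 0.20, adjusted p = 0.00728; lost without the first B6 library, 0.0577, or the first DBA library, 0.0630). Il18 was higher in KO (0.65, adjusted p = 0.00138) and DBA (0.39, adjusted p = 0.0172) in room air, and the DBA call was lost without the second B6 library (0.0968), without the second DBA library (0.0789) and under quantile normalization (0.360). Tnfaip3 was lower in KO in room air (-0.67, adjusted p = 0.000229) and in hyperoxia (-0.90, adjusted p = 3.99e-05). Nfkbid was lower in KO in room air (-1.16, adjusted p = 9.38e-06), and these calls held without each library. Nlrp3 (0.63) and Il1a (1.07) were higher in room-air KO, and each call was lost without 3 of 4 libraries. Genotype and date code cannot be told apart in any of these comparisons with B6. Fibroblast markers summed to 0.069 to 0.611 TPM in B6 BMDM, 74.8 to 107 TPM in room-air KO and DBA, and 24.2 to 32.8 TPM in hyperoxic KO and DBA. Their part in the differences from B6 was not tested.

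In whole lung the first B6 set was the only one in which Il1b fell with hyperoxia. Il1b was 5.30, 7.21, 6.31 and 5.00 TPM in the 4 room-air B6 lungs and 0.562, 3.05 and 1.52 TPM in the 3 hyperoxia lungs, without overlap. The log2 fold change was -1.46 ± 0.28 (adjusted p = 0.000597), and it stayed under 0.05 in all 14 alternatives, with adjusted p up to 0.0246. Within date code 1 alone it was -1.52 (adjusted p = 0.0246) and in males alone -1.17 (adjusted p = 0.0132). Both checks use the same room-air B6 lungs, so they are not separate. Il18 also fell, from 4.57, 8.24, 10.8 and 8.94 TPM to 3.75, 6.33 and 4.65 TPM (-0.60 ± 0.23, adjusted p = 0.0432), but the groups overlapped and the call was lost in 11 of 14 alternatives. Within date code 1 it was -0.30 (adjusted p = 0.423), and it was lost without room-air library 2, 3 or 4 (0.0823, 0.122 and 0.0968) and without hyperoxia library 1 or 3 (0.175 and 0.104). These were 2 of 8 genes tested, where 42.7% of all 15614 genes passed (16.6% higher, 26% lower). The median of the 8 was -0.28 against -0.07 over all genes. Nfkbid was just outside at -0.42 (adjusted p = 0.0501). The 6 monocyte markers summed to 91.7 to 112 TPM in the room-air lungs and 49.2 to 68.8 TPM in the hyperoxia lungs, 3 of 6 fell and 1 rose, and 5 of 10 macrophage markers fell while 2 rose. Their part in the fall of Il1b was not tested.

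Set 2, with other B6 males, did not show the fall. Il1b measured 3.71 and 4.63 TPM in room air against 3.47, 5.25 and 7.05 TPM with hyperoxia, and the log2 fold change was 0.24 (95% interval -0.32 to 0.80, adjusted p = 0.631), an interval that lies above the estimate of the first set. None of 7 genes passed with limma, 1 was at an unadjusted p under 0.05 (Il18, -0.44), and 4.94% of all genes passed (3.13% higher, 1.81% lower). The depth of set 2 was lower, with 30 to 58 estimated reads of Il1b per library. The sets were normalized in separate tables, so the difference between them was not tested. Monocyte markers summed to 101 to 122 TPM in room air and 90.5 to 129 TPM in hyperoxia in set 2, and none of 6 passed. Macrophage markers summed to 5351 to 5927 TPM and then 3028 to 3754 TPM, with 2 of 10 higher and 1 lower. Such a sum follows its most abundant markers and is no measure of macrophage number. B cell markers summed to 127 to 129 and then 62.3 to 72.4 TPM, with 4 of 5 lower. The part of these markers in the Il1b values was not tested.

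**Figure D4:**
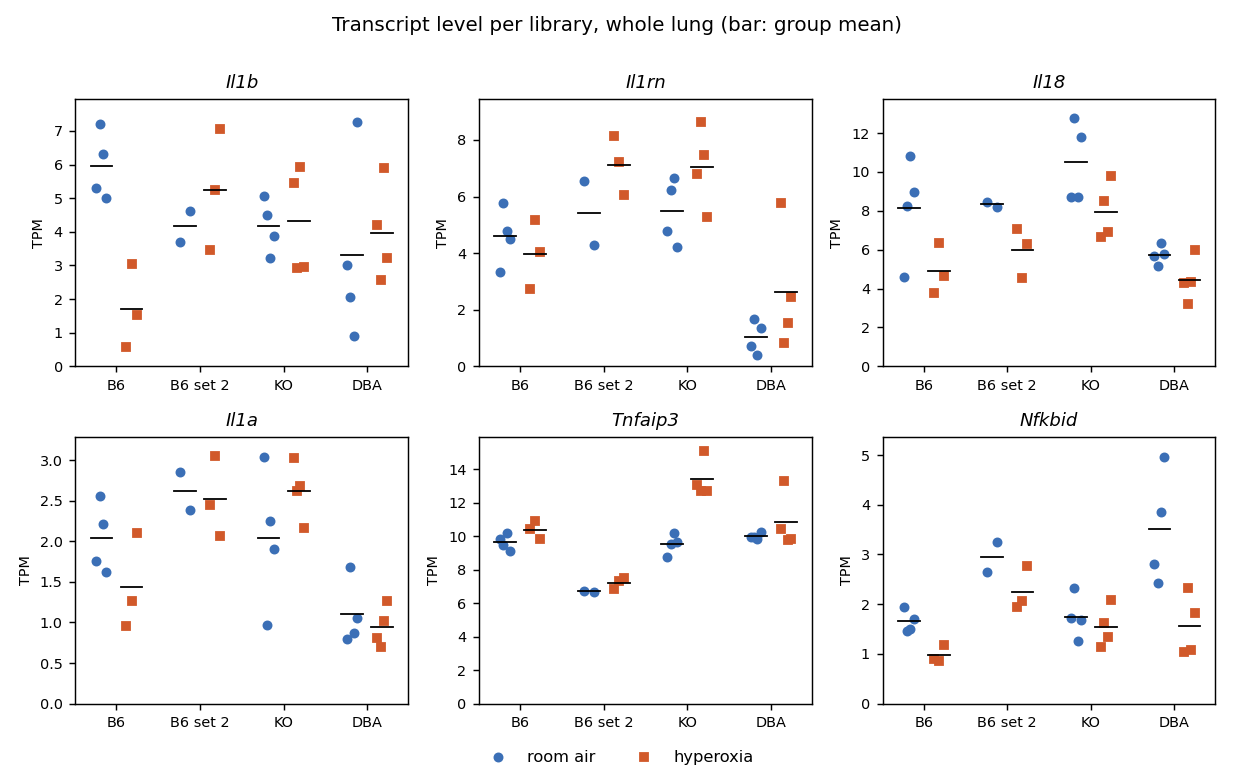
TPM of 6 genes in each lung library (circles, room air; squares, hyperoxia; horizontal bars, group mean; y axes start at 0 and differ between panels). Il1b separates the exposures in the first B6 set only, and Il18 in set 2 only (8.21 to 8.45 against 4.53 to 7.09 TPM). Tnfaip3 separates them in KO (8.78 to 10.2 against 12.7 to 15.1 TPM) and narrowly in set 2. Nfkbid separates them in the first B6 set (1.47 to 1.94 against 0.862 to 1.18 TPM) and in DBA (2.43 to 4.96 against 1.04 to 2.33 TPM).

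KO and DBA lungs each changed 1 feedback gene. In KO lung Tnfaip3 was 8.78, 9.54, 10.2 and 9.66 TPM in the room-air libraries against 13.1, 12.7, 15.1 and 12.7 TPM with hyperoxia, and it rose by 0.45 ± 0.08 (adjusted p = 0.00146). The groups did not overlap, and the rise was 0.39 within date code 3 (adjusted p = 0.04) and held in all 15 alternatives. It was 1 of 8 genes, where 19.7% of all genes passed (10.6% higher, 9.11% lower). Macrophage markers summed to 5087 to 6557 TPM in room-air KO lung and 2871 to 3686 TPM in hyperoxic KO lung. Of the 10 markers 3 rose and 2 fell, so the sum follows the most abundant of them and is no measure of macrophage number. Monocyte markers summed to 68.6 to 96.5 and then 102 to 117 TPM, and 2 of 6 rose. The part of these markers in the rise of Tnfaip3 was not tested. Il1b had no detectable change in KO lung (95% interval -0.54 to 0.55). In DBA lung Nfkbid was 2.80, 2.43, 3.85 and 4.96 TPM in the room-air libraries against 1.04, 2.33, 1.07 and 1.82 TPM with hyperoxia, and it fell by 0.81 ± 0.19 (adjusted p = 0.00521) without overlap. Within date code 5 it was -1.15 (adjusted p = 0.0221) and within date code 4 -0.47 (adjusted p = 0.328), with 2 libraries a group in each. It was also 1 of 8, where 31% of all genes passed (18.6% higher, 12.4% lower). Il1b in DBA lung spread from 0.896 to 7.27 TPM in room air and from 2.56 to 5.90 TPM in hyperoxia (0.37, adjusted p = 0.470). Il1rn in DBA lung was 0.717, 1.69, 0.416 and 1.34 TPM and then 5.78, 0.832, 1.52 and 2.44 TPM (0.70, adjusted p = 0.112), and its highest library carried more than 2 times the TPM of any other DBA lung. In DBA lung 4 of 8 neutrophil markers and 3 of 6 monocyte markers rose with hyperoxia, and their summed levels went from 77.7 to 119 and from 38.6 to 73.1 TPM to 112 to 485 and 71.4 to 103 TPM. Their part in the fall of Nfkbid was not tested.

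The Il1b response of the first B6 lung set differed from those of KO and DBA lung. KO minus B6 was 1.46 ± 0.38 (adjusted p = 0.0102; 1.69, adjusted p = 0.0223, with date code as a term; 1.17, adjusted p = 0.0519, with males alone), and DBA minus B6 was 1.83 ± 0.54 (adjusted p = 0.0207; 1.89, adjusted p = 0.0440, with date code as a term; 1.54, adjusted p = 0.113, with males alone). The KO difference held without each of 15 libraries, and the DBA difference was lost without the first B6 hyperoxia library, a female (1.48, adjusted p = 0.0634). Both use the same 7 B6 lungs and are not independent of each other. The B6 lungs of set 2, in a separately normalized table, gave 0.24 (95% interval -0.32 to 0.80) beside 0.00 in KO and 0.37 in DBA, and were not tested against them. Tnfaip3 was the other gene whose KO response differed from B6 (0.35 ± 0.12, adjusted p = 0.0381), and that call was lost without 10 of the 15 libraries (adjusted p 0.0516 to 0.0841), by quantile normalization (0.162), with date code as a term (0.15) and with males alone (0.109). In these comparisons 2 of 8 and 1 of 8 genes passed, where 25.3% of all genes passed for KO minus B6 (16.4% higher, 8.98% lower) and 29.2% for DBA minus B6 (20% higher, 9.2% lower). Of those calls over all genes 64.6% and 68.5% were higher, and 50.9% and 53.1% after quantile normalization.

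Genotypes were also compared within each exposure. In room air none of 8 genes differed between KO and B6 lung at adjusted p under 0.05 with limma and none at an unadjusted p under 0.05, where 0.0769% of all genes passed (0.0512% higher, 0.0256% lower). In hyperoxia 5 of 8 were higher in KO and none was lower, where 37.2% of all genes passed (22% higher, 15.2% lower). Il1b was 5.44, 2.93, 5.92 and 2.95 TPM in KO against 0.562, 3.05 and 1.52 TPM in B6 (1.03 ± 0.28, adjusted p = 0.00860), and Il1rn was 6.80, 8.62, 7.47 and 5.29 against 2.74, 5.18 and 4.04 TPM (0.70 ± 0.20, adjusted p = 0.0120). The others were Il18 (0.61, adjusted p = 0.0451), Il1a (0.59, adjusted p = 0.0447) and Tnfaip3 (0.33, adjusted p = 0.00651). All B6 hyperoxia lungs carry code 1 and all KO hyperoxia lungs code 3. With date code as a term no call remained, at 1.495 (adjusted p = 0.136) for Il1b, 0.68 (0.371) for Il1rn, 0.58 (0.492) for Il1a, 0.23 (0.451) for Tnfaip3 and 0.07 (0.944) for Il18. With males alone only the Tnfaip3 call remained (adjusted p = 0.0254). Without the first B6 hyperoxia library, Il1b was 0.68 (adjusted p = 0.0570) and Il1rn 0.51 (adjusted p = 0.0750). Il1a was lost without any of 5 of 7 libraries (adjusted p up to 0.18, without the first B6 library) and Il18 likewise (up to 0.18, without the same library). Macrophage markers summed to 2871 to 3686 TPM in hyperoxic KO lung and 1911 to 2160 TPM in hyperoxic B6 lung, 7 of 10 were higher and 1 lower, and 4 of 6 monocyte markers were higher. Their part in these differences was not tested.

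DBA lung differed from B6 in room air in 3 of 8 genes, where 56.4% of all 15623 genes passed (21.5% higher, 34.8% lower). Il1rn was 0.416 to 1.69 TPM in the 4 DBA lungs and 3.34 to 5.77 TPM in the 4 B6 lungs (-1.48 ± 0.32, adjusted p = 0.00123), which held without each library. Il1a was lower (-0.54 ± 0.18, adjusted p = 0.0185; lost without B6 library 2, 0.0605, or DBA library 1 or 3, 0.0554 and 0.0503) and Nfkbid higher (0.73 ± 0.19, adjusted p = 0.00423). In hyperoxia none of 8 passed with limma, where 46.1% of all genes passed (23.3% higher, 22.8% lower), and 1 was at an unadjusted p under 0.05 (Il1b, 0.94, adjusted p = 0.0667). DBA and B6 lungs share no date code, so genotype and date code cannot be told apart. In room air 8 of 10 macrophage, 5 of 8 alveolar macrophage and 6 of 6 monocyte markers were lower in DBA lung and none was higher, and macrophage markers summed to 757 to 1176 TPM against 2690 to 5247 TPM in B6. Their part in the lower Il1rn and Il1a was not tested. Among room-air BMDM Il1rn was lower than in B6 in both DBA (-2.56) and KO (-2.42). Both values rest on the same B6 BMDM libraries, of another date code, so genotype and date code cannot be told apart there either. In room-air lung KO did not differ detectably from B6 in Il1rn (0.21, limma adjusted p = 0.819).

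Other pathway genes in lung moved in both directions. In the first B6 set 4 of 10 inflammasome genes rose and 4 fell (16.6% and 26% over all genes), led by Txnip, which rose by 1.43 (adjusted p = 3.72e-06), while Txnip fell in KO lung by 0.79 (adjusted p = 0.00147). The KO minus B6 difference for Txnip was -2.21 (adjusted p = 7.40e-06). Il6ra rose in B6 lung (1.20, adjusted p = 3.74e-06), opposite to B6 BMDM, and Tnfrsf1b fell (-0.79, adjusted p = 0.000177). Of 13 inflammatory products tested in KO lung 6 rose and none fell (10.6% and 9.11% over all genes), led by the chemokine genes Cxcl5 (2.61), Ccl2 (1.99) and Cxcl10 (1.75), with adjusted p of 2.23e-06, 0.000166 and 0.000336. Set 2 had 5 of 14 rising and none falling (3.13% and 1.81% over all genes), with Cxcl5 at 3.91 (adjusted p = 0.000684), Cxcl1 at 1.56 and Ccl2 at 1.53 (adjusted p = 0.0495, and 0.0905 after quantile normalization). Ccl2 also rose in the first B6 set (1.73, adjusted p = 0.000204), whereas it fell in BMDM of all 3 genotypes. In DBA lung 6 of 18 NF-kB factors and inhibitors fell and none rose (12.4% and 18.6% over all genes), led by Zfp36 (-1.10), Nfkbia (-0.70) and Ikbkb (-0.68).

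The transcription factor p53 was mapped by chromatin immunoprecipitation, and peak lists were deposited for each genotype and exposure in lung and for B6 and KO BMDM. Scores are the authors' tag counts scaled to 10 M tags, from replicates pooled before calling, so no peak has a replicate check. Within 50 kb of the start sites of these genes lay 8 peaks near 5 genes, all in B6 lists. Room-air B6 BMDM had such a peak for 4 of the 10 genes, where 23.2% of all start sites had one, and hyperoxia B6 BMDM for 1 of 10, where 18.8% had one. In room air the only peak near Il1a (chr2:129330666-129330866) was also counted for its neighbour Il1b, so these genes are not separate cases. The Nlrp3 peaks were the nearest, at chr11:59541443-59541643 in room air (score 21) and chr11:59541373-59541573 in hyperoxia (score 19), centred 1.1 and 1.2 kb before the listed start and overlapping each other. Both cover the half-site match printed above, and the NF-kB match of that window lies in the hyperoxia peak alone. Hyperoxia B6 BMDM had a further peak 43.5 kb after the Nlrp3 start with a score of 10. The room-air list placed peaks between and beyond Il1a and Il1b at chr2:129330666-129330866 (score 16), chr2:129360188-129360388 (score 18, 10.9 kb after the Il1b start) and chr2:129401278-129401478 (score 13). It also had a peak 8.9 kb before Nfkbid at chr7:30412752-30412952, whose score of 30 ranked 122 of 4107. The hyperoxia list had no peak within 50 kb of Il1a, Il1b or Nfkbid. Its lowest score was 8, against 6 in the room-air list, and tag counts at these sites were not compared between exposures. That absence is therefore not a measured loss of binding. In lung only Il10 had one, in B6 hyperoxia 9.8 kb before its start at chr1:131009957-131010157, with the lowest score of its list (5), where 1.5% of all start sites had one. The KO BMDM chromatin samples were taken as KO from their titles, while their genotype label reads C57BL/6J. Their lists hold 1263 and 1320 peaks against 4107 and 3500 for B6, and were called against the B6 BMDM input, so the absence of a KO peak near these genes is not a measured loss of binding.

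As a description with no test, the transcripts whose log2(TPM + 1) followed each gene most closely over the 12 BMDM libraries were Chst11 and Hmga2 for Il1rn (Pearson r = 0.990 and 0.986), Fut8 and Txndc16 for Il18 (0.987 and 0.978), Trim25 and Ccdc88b for Nlrp3 (0.985 and 0.965) and Rtn4 and Ppa1 for Tnf (0.972 and 0.967). Il1b was closest to Kti12 (0.956) and Tnfaip3 to Hilpda (0.969). These libraries share 2 date codes and 6 groups, which alone can give high values. Over the 15 B6 and KO lungs Il1rn was closest to Spi1 (0.930), which encodes the myeloid factor PU.1, Il18 to Rnpc3 (0.937), Tnfaip3 to Renbp (0.923) and Il1b to Dffa (0.922). Likeness was computed for 8 of the 10 genes in BMDM (not Il6 and Il10) and 7 in lung (nor Tnf), and none of these had another of the 10 among its 2 closest transcripts. Among the genes themselves, Il1b and Il1rn had r = -0.26 over the 12 BMDM libraries and 0.43 over the 15 lungs.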

How the data were processed

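RNA from 40 libraries and p53 peak lists were used. The submitters' processing notes list STAR, Bowtie2, HOMER and mm10 without saying which tool did which step. The authors deposited TPM for 24940 RefSeq transcripts, 1 per symbol. Peaks of 200 bases were called per the file headers with HOMER on pooled tag directories, at 4-fold over input and a false discovery rate of 0.001. The deposited peak score is a tag count scaled to 10 M tags, per the file headers. The sources used here give no tool versions.

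TPM were tested as log2(TPM + 1), so folds of low genes are understated, with limma 3.58.1 (R 4.3.3, trended variance, Benjamini-Hochberg over all genes of a table, call at adjusted p under 0.05). All groups of a table entered the fit. Genes needed 1 TPM in at least the number of libraries of the smallest group. Low values were whole multiples of 1 read within 0.15, which gave the estimated reads. Their total per library sets the precision, and read numbers of low genes are given beside their values. Groups came from the labels, and columns were matched to groups by name. The B6 lungs are the same 7 libraries in both lung tables, which were normalized separately. There were 19 comparisons planned and 3 added (KO against DBA BMDM). Alternatives were a pseudocount of 0.1, no filter, quantile normalization, only the groups compared, males alone, date code, a replicate block and leaving out each library. Peaks were assigned to a start site within 50 kb of the peak centre. The fit was also run on simulated data with independent noise per library. That simulation had no date-code, sex or replicate structure, so it cannot bear on those limits.

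The 10 genes are all named, and other genes by size of change among called list members, 3 per list. The genes and lists were chosen with earlier results of these data known, so they are no independent evidence. Promoter sequences are RefSeq's (GRCm38.p6).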

Additional observations from a re-analysis of the deposited data

Results flagged for a closer look

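Of 50 groups of 4 lungs tested for a library far from the others, 5 gave one. A chance rate of about 1 in 20 does not apply to groups with libraries at 0, so the 5 were not set against it. The highest library stood far from the other 3 for Tnfaip3 in hyperoxic KO lung (15.101 TPM) and for Nlrp3 in the same group (1.329 TPM). Il10 did so in room-air KO lung (0.551 TPM), hyperoxic KO lung (0.108 TPM) and room-air DBA lung (0.239 TPM), at 14 reads or fewer each. In the last 2 of these groups every other library was at 0, so any read at all would have been flagged.

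The response to hyperoxia differed between genotypes by the interaction term of limma in 5 cases. In lung, where B6 is the first B6 set, these were Il1b for KO minus B6 (1.46), Tnfaip3 for KO minus B6 (0.35) and Il1b for DBA minus B6 (1.83), on the log2 scale. In BMDM they were Nfkbid for KO minus B6 (1.05) and for DBA minus B6 (1.23). The B6 libraries are shared by both differences of each tissue. With males alone the 3 lung differences had adjusted p of 0.0519, 0.109 and 0.113. The B6 lungs of set 2, which were not part of these tests, had an Il1b response of 0.24.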

How the results depend on the processing

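Each of the 59 called gene results was recomputed under its alternatives, 602 values in all, of which 459 kept their call, 142 lost it and 1 reversed: Il18 in hyperoxic DBA against B6 BMDM was -0.008 after quantile normalization. In 22 of the 59 the call held throughout. The causes of the changes below were not tested, apart from the smaller number of libraries where some were left out.

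The number of genes called changed as follows. In B6 lung it was 2, and 1 after quantile normalization, with only the groups compared, with males alone, within date code 1 and with date code as a term. KO against B6 in hyperoxic lung had 5, and 3 without the filter, 3 after quantile normalization, 1 with males alone and 0 with date code as a term. The KO minus B6 lung response had 2, and 1 after quantile normalization, 0 with males alone and 1 with the date-code term. DBA lung had 1, and 0 within date code 4. DBA against B6 in hyperoxic lung had 0, and 1 with only the groups compared, and the DBA minus B6 lung response had 1, and 0 with males alone. B6 BMDM had 5, and 2 after quantile normalization and 2 with only the groups compared. KO BMDM had 3, and 6 with only the groups compared and 5 with a replicate block. DBA BMDM had 4, and 7 with a replicate block. The KO minus B6 and DBA minus B6 BMDM responses had 1 each, and 0 with only the groups compared. DBA against B6 BMDM had 6 in room air, and 3 with only the groups compared, and 5 in hyperoxia, and 3 without the filter and 3 with only the groups compared. KO against DBA in hyperoxic BMDM had 2, and 4 with a pseudocount of 0.1, 4 with only the groups compared and 4 with a replicate block.

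With 1 library left out, the counts were 1 to 2 (B6 lung), 1 (KO lung), 1 to 2 (DBA lung), 0 (set 2), 0 and 1 to 4 (KO against B6 lung, room air and hyperoxia), 2 to 4 and 0 to 1 (DBA against B6 lung), 1 to 2 and 0 to 1 (lung responses of KO and DBA minus B6), 1 to 5, 1 to 2 and 2 to 4 (B6, KO and DBA BMDM), 5 to 7 and 4 to 5 (KO against B6 BMDM), 3 to 6 and 3 to 5 (DBA against B6 BMDM), 0 to 1 in both BMDM responses against B6, and 1 to 4, 2 and 0 (KO against DBA in room air, in hyperoxia and in their responses). A group of 2 that lost a library was assumed to vary like the other groups. Peaks near these genes numbered 8, and 4 within 10 kb and 6 at double the lowest score.

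Same-numbered BMDM libraries deviated together with correlations of 0.385 in B6 (paired by the MF and F marks), -0.0508 in KO and 0.079 in DBA. In set 2 the correlations were 0.0475 and 0.00827. The replicate block used the MF and F marks in B6 BMDM and a shared number in the others, and the main fit used neither. For the first lung sets no paired analysis was possible, because column numbers restart within date codes. Il6 in BMDM (at most 2 reads a library) and Il6 and Il10 in lung were under the filter and not tested.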
